A study of Mus musculus with 2 samples.

Results

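Cells that carried Cdx2 transcripts were picked out of a single-cell RNA library of PHD2-KO AB2.2 cells, a mouse embryonic stem cell line, after 4 days of differentiation toward mesendoderm. They were set against other cells of the same library and against the wild type (WT) AB2.2 library, differentiated for the same 4 days. PHD2, encoded by Egln1, is a prolyl hydroxylase that uses oxygen to mark hypoxia-inducible factor for destruction, and the labels do not say which stretch of it was altered. Both cultures were dissociated with trypsin and run on the 10x Genomics droplet platform, 1 library each, and nothing in the labels says whether the knockout line was 1 clone. Values are counts of unique molecular identifiers (UMIs), each standing for 1 captured transcript. A cell was a member where at least 1000 genes were detected, mitochondrial UMIs were at most 10%, Cdx2 had at least 2 UMIs, Mesp1 had fewer than 3 and Gsc had fewer than 2. This gave 532 of 7383 kept knockout cells, or 7.21% (95% Clopper-Pearson interval 6.63 to 7.82), called Cdx2+ cells here. In the WT library 20 of 9227 kept cells met the same limits, or 0.217% (0.132 to 0.335).

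The cells compared with them, called T+ cells without Cdx2, were the 2751 knockout cells (37.3% of those kept) with at least 3 UMIs of T, no Cdx2 UMI and fewer than 3 of Mesp1. Further groups of the knockout library were 1346 Mesp1+ cells with at least 3 Mesp1 UMIs, and 213 Gsc+ cells with at least 2 Gsc UMIs, no Cdx2 and fewer than 3 Mesp1 UMIs, of which 158 are also among the T+ cells without Cdx2. A further 176 Zfp42+ cells, with at least 2 UMIs of the pluripotency gene Zfp42 and none of T, served as a cell state that should lack streak markers. Median depth was 23025.5 UMIs in Cdx2+ cells, 21629 in T+ cells without Cdx2, 22418.5 in Mesp1+ cells, 22439 in Gsc+ cells, 23455.5 in Zfp42+ cells and 20740 in WT cells. The knockout and WT libraries held 173470962 and 226179474 UMIs, and 18 kept barcodes occurred in both. Levels are given in CPM, the UMIs of a gene summed over the cells of a group and scaled to the same total in every group. Egln1 itself was at 17.1 CPM in Cdx2+ cells, 13.4 CPM in T+ cells without Cdx2, 13.7 CPM in all knockout cells and 18.1 CPM in WT cells. Transcript outside the altered stretch would still be counted, so those levels do not check the knockout. With 1 library per genotype, and with both cell groups of the main comparison taken from the same library by their own counts, no test applies. Intervals given are 95%, exact, and cover counting error only.

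In the mouse embryo the primitive streak is patterned along its length. Its posterior part and the caudal epiblast beside it express the homeobox gene Cdx2, which drives posterior Hox genes and axis elongation, together with T (Brachyury), Nkx1-2, Evx1 and the ligands Wnt3a and Fgf8. The anterior streak expresses Gsc, Foxa2 and Eomes instead, and cells that leave the streak as the earliest mesoderm switch on Mesp1. Cdx2 also marks trophoblast and hindgut, so markers of both were examined.

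Cdx2+ cells were chosen by their own UMI counts of Cdx2, Mesp1 and Gsc, and the cells compared with them by T, Cdx2 and Mesp1, so these levels are a description only. Among Cdx2+ cells Cdx2 had 2 UMIs in 295, 3 in 142, 4 in 44, 5 in 27 and 6 or more in 24, with a highest count of 9. Most of the cells therefore lay at or next to the limit. Just outside it, 840 knockout cells had exactly 1 Cdx2 UMI with Mesp1 and Gsc in the same range, against the 295 members at 2. Mesp1 was at 2 UMIs in 27 members, and 14 cells that otherwise met the limits had 3. Gsc was at 1 UMI in 55 members, and 10 cells that otherwise met the limits had 2. Of all 649 knockout cells with at least 2 Cdx2 UMIs, 97 were set aside for Mesp1 and 58 for Gsc, 38 of them for both.

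The name "posterior streak" was borne out in part by the markers. T was present at 3 UMIs or more in 489 of the 532 Cdx2+ cells (91.9%, 89.3 to 94.1), although the limits on members did not ask for it. T was common in this library. At least 3 T UMIs were also found in most of the 840 knockout cells with 1 Cdx2 UMI and the same other limits. Among 5674 knockout cells with no Cdx2 UMI, 2751 had at least 3 of T and fewer than 3 of Mesp1. Nkx1-2, a homeobox gene of the caudal epiblast (ENSMUSG00000048528, mm10 chromosome 7, 132594878 to 132599637, minus strand), was at 11.6 CPM in Cdx2+ cells (9.89 to 13.5), 5.43 CPM in T+ cells without Cdx2 and 2.30, 1.98 and 2.28 CPM in Mesp1+, Gsc+ and Zfp42+ cells. Its level was highest in Cdx2+ cells, and its interval there did not overlap that of any of these groups. Hoxb1, the Hox gene that is active earliest in the streak (ENSMUSG00000018973, chromosome 11, 96365752 to 96368256, plus strand), was at 26.5 CPM in Cdx2+ cells (23.8 to 29.3), 17.4 CPM in T+ cells without Cdx2, 32.3 CPM in Mesp1+ cells (30.4 to 34.3), 18.8 CPM in Gsc+ cells and 4.33 CPM in Zfp42+ cells. Evx1, a homeobox gene of the posterior streak (ENSMUSG00000005503, chromosome 6, 52313498 to 52318378, plus strand), was at 31.1 CPM in Cdx2+ cells (28.2 to 34.1), 21.9 CPM in T+ cells without Cdx2, 41.9 CPM in Mesp1+ cells and 38.6 CPM in Gsc+ cells. Hoxb1 and Evx1 were therefore higher in Cdx2+ cells than in T+ cells without Cdx2, and higher again in Mesp1+ cells. Wnt3a, the ligand that maintains the caudal streak, had 7 UMIs in all 532 Cdx2+ cells (0.495 CPM, 0.199 to 1.02) and 14 in the T+ cells without Cdx2 (0.213 CPM, 0.116 to 0.358), which is too few to separate them. The cells are accordingly called by their leading genes, Cdx2 and T, and not by a position in the embryo.

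**Figure D1:**
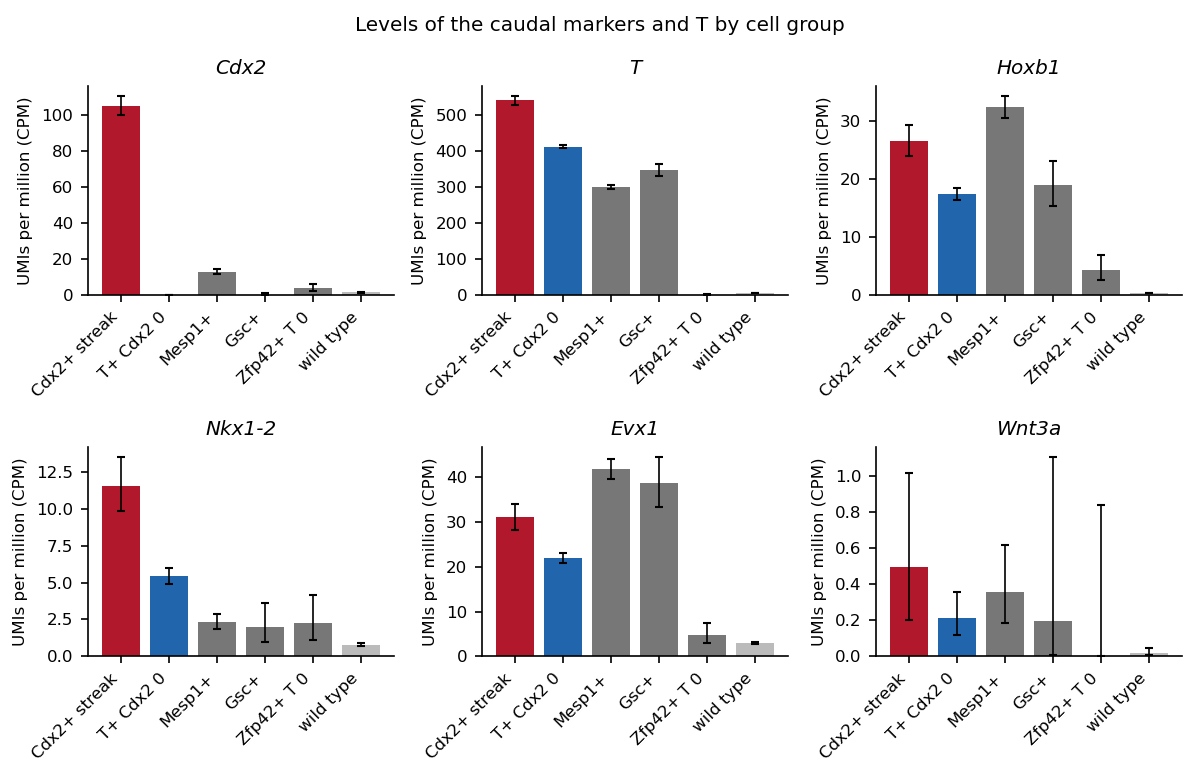
Levels of Cdx2, T and the other markers in CPM, with bars for the summed cells of each group and lines for 95% counting intervals; T+ Cdx2 0 stands for T+ cells without Cdx2, and Cdx2, T, Mesp1 and Gsc levels follow from how the cells were chosen. Nkx1-2 stood highest in Cdx2+ cells (11.6 CPM), Hoxb1 and Evx1 stood highest in Mesp1+ cells (32.3 and 41.9 CPM), and Wnt3a was below 1 CPM in each group.

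Expressed as cells with at least 1 UMI after every cell was thinned to 14000 UMIs, Nkx1-2 was found in 12.9% of Cdx2+ cells, 6.45% of T+ cells without Cdx2 and 1.81% of Zfp42+ cells (21.8%, 11.01% and 5.11% before thinning). Hoxb1 was found in 26.3%, 17.1% and 4.82% of the same groups (35.0%, 22.9% and 7.39% before thinning), and Evx1 in 33.1%, 24.5% and 6.02% (50.8%, 36.0% and 10.2%). Thinning left out 12 Cdx2+ cells, 176 T+ cells without Cdx2 and 10 Zfp42+ cells that were shallower. Cdx2+ cells stood above Zfp42+ cells for all 3 genes. Zfp42+ cells were chosen to have no T UMI, so their share need not be the level that free RNA gives. That level was not measured. Of Hoxb1, Nkx1-2, Evx1 and Wnt3a, at least 2 were detected together in 158 Cdx2+ cells (29.7%, thinned 15.8%), in 14.1% of T+ cells without Cdx2 (thinned 7.34%), in 28.8% of Mesp1+ cells (thinned 13.0%) and in 2.84% of Zfp42+ cells (thinned 0.602%). No Cdx2+ cell had all 4, and 140 of them (26.3%) had none.

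The other Cdx genes were scarce. Cdx1 had 21 UMIs in Cdx2+ cells (1.49 CPM) and 77 in T+ cells without Cdx2 (1.17 CPM), and Cdx4 had 10 UMIs (0.707 CPM) and 19 (0.289 CPM). Of 39 Hox genes 23 had at least 1 UMI in Cdx2+ cells, and 16 were at 0, where 3 UMIs would be 0.212 CPM. Hoxb1 alone made up 68.4% of the Hox UMIs of Cdx2+ cells and 64.8% of those of T+ cells without Cdx2, and all Hox genes together came to 38.7 and 26.8 CPM in those groups. Hoxb2 was at 3.04 CPM in Cdx2+ cells, 3.93 CPM in T+ cells without Cdx2 and 12.1 CPM in Mesp1+ cells. No Hox gene of groups 3 to 13 reached 1 CPM in Cdx2+ cells, with Hoxa5 at 0.424 CPM from 6 UMIs and Hoxb9 at 0.283 CPM from 4.

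Across the transcriptome Cdx2+ cells stood close to T+ cells without Cdx2. Of 8668 genes at 5 CPM or more in the higher group, 71 were higher in Cdx2+ cells by at least 1.5-fold (0.819%) and 8 were lower (0.0923%), on the log2 scale with 1 CPM added to each level, which understates the change of low genes. The median log2 ratio of all measured genes was 0.03. These 79 genes are 0.911% of those measured, and include Cdx2 and Gsc, which the limits on cells moved. The counting interval of the fold excluded 1 for each, but the 1.5-fold limit at these totals already entails that. Against all other knockout cells together, 116 of 8671 genes were higher (1.34%) and 58 were lower (0.669%). The genes higher in Cdx2+ cells included Nkx1-2, and the highest fold apart from Cdx2 itself was that of Ccno (3.10). Hoxb1, at a fold of 1.52 (1.35 to 1.71) and a log2 ratio of 0.58, lay just under the limit.

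**Figure D2:**
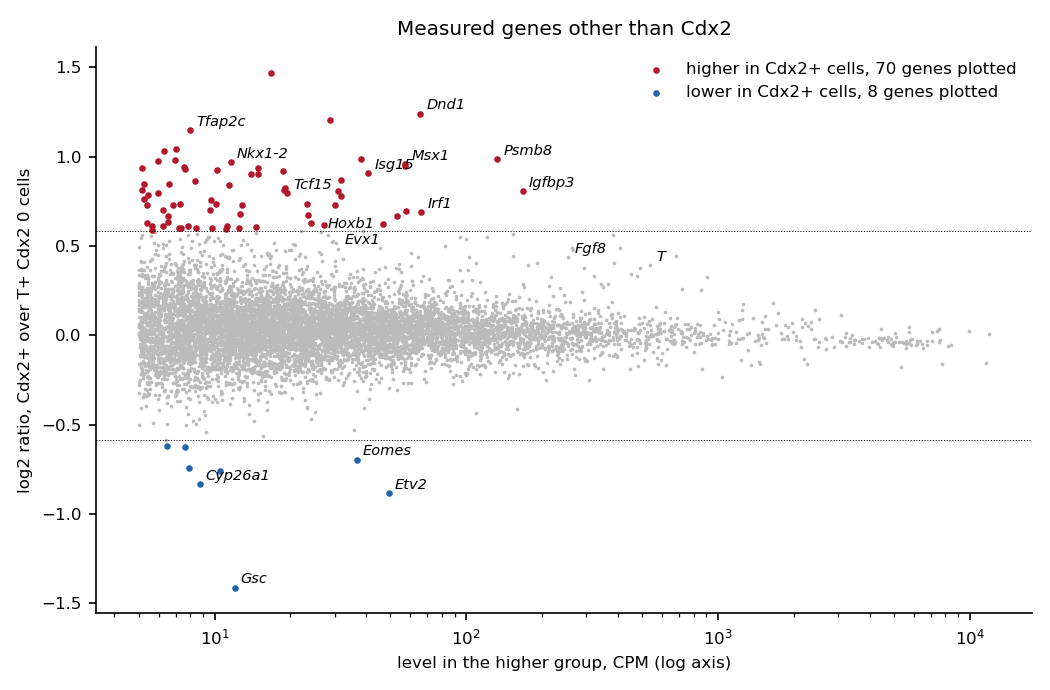
Each point is 1 measured gene, with its level in the higher group on a log axis in CPM and its log2 ratio of Cdx2+ cells over T+ cells without Cdx2 on the other axis; dotted lines mark 1.5-fold and Cdx2 is left out. Most genes sit near 0, Dnd1 and Psmb8 stand out among the abundant genes that were higher, and Gsc, which the limits on members lower, and Etv2 are at the low end.

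Of 8 germ cell genes listed, 3 were measured, 2 (Dnd1 and Tfap2c) were higher in Cdx2+ cells and none was lower, where 0.819% of all measured genes were higher. Of the groups compared, Tfap2c reached 5 CPM only in Cdx2+ cells, so its place among the 3 follows from its being higher there. Dnd1 encodes an RNA-binding protein needed for the survival of primordial germ cells. It was at 65.7 CPM in Cdx2+ cells (61.6 to 70.1) and 27.2 CPM in T+ cells without Cdx2 (26.0 to 28.5), a fold of 2.41 (2.23 to 2.62). In Mesp1+, Gsc+, Zfp42+ and WT cells it was at 19.4, 30.3, 8.89 and 7.32 CPM, all below Cdx2+ cells. After thinning, 46.2% of Cdx2+ cells and 24.3% of T+ cells without Cdx2 had a Dnd1 UMI, against 6.63% of Zfp42+ cells. Tfap2c, a transcription factor of germ cell specification that is also a trophoblast factor, was at 7.99 CPM in Cdx2+ cells (6.59 to 9.61) and 3.06 CPM in T+ cells without Cdx2 (2.65 to 3.51), a fold of 2.61 (2.06 to 3.31). It was as high in Zfp42+ cells, at 8.43 CPM. The third measured gene, Ifitm3, a membrane protein of early germ cells, was at 717 CPM in Cdx2+ cells and 599.8 CPM in T+ cells without Cdx2. Prdm1, the master repressor of germ cell specification, lay under the measuring limit at 3.89 CPM in Cdx2+ cells and 1.60 CPM in T+ cells without Cdx2. Nanos3, an RNA-binding germ cell protein, was at 2.19 and 1.34 CPM in those groups.

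Since Cdx2 also belongs to trophoblast and hindgut, both lists were read. The defining trophoblast gene Elf5 was at 0 in Cdx2+ cells. Of 12 trophoblast genes only Tfap2c and Ascl2 were measured, and the whole list summed to 31.3 CPM in Cdx2+ cells and 18.1 CPM in T+ cells without Cdx2. Ascl2 was at 9.34 and 6.12 CPM in those groups, Gata3 at 3.25 and 2.48 CPM, Krt7 at 2.41 and 1.32 CPM and Tfap2a at 1.20 and 0.304 CPM. The median log2 ratio of the 2 measured genes was 0.84, and Tfap2c was measured through its level in Cdx2+ cells only. Of 12 endoderm and hindgut genes 4 were measured, and only Cdx2, by which the cells were chosen, was higher. The others were the keratin Krt19, at 216 CPM in Cdx2+ cells and 173 CPM in T+ cells without Cdx2, Trh at 80.4 and 109 CPM, and Hhex, a homeobox gene of anterior endoderm, at 6.51 and 5.33 CPM. Of the endoderm factors, Sox17 was at 0.354 CPM in Cdx2+ cells and 0.396 CPM in T+ cells without Cdx2, Foxa2 at 0.283 and 0.761 CPM, and Hnf4a at 0 in both. The visceral endoderm gene Ttr was at 0 in Cdx2+ cells, and none of 7 feeder fibroblast genes was measured, with summed levels of 3.11 and 3.17 CPM.

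Of the list of 12 interferon and immunoproteasome genes 10 were measured, 3 were higher (Psmb8, Psmb9 and Isg15), none was lower, and the median log2 ratio was 0.30. Psmb8, a catalytic subunit of the immunoproteasome, was at 133 CPM in Cdx2+ cells (127 to 139) and 66.4 CPM in T+ cells without Cdx2 (64.5 to 68.4), a fold of 2.0 (1.89 to 2.11). It was at 61.6, 83.6, 13.7 and 15.2 CPM in Mesp1+, Gsc+, Zfp42+ and WT cells. After thinning, 61.9% of Cdx2+ cells and 39.9% of T+ cells without Cdx2 carried a Psmb8 UMI, against 9.64% of Zfp42+ cells. Isg15, a ubiquitin-like protein induced by interferon, was at 40.9 and 21.3 CPM in Cdx2+ cells and T+ cells without Cdx2, a fold of 1.92 (1.74 to 2.11). Irf1, a transcription factor of the interferon response, was at 66.2 and 40.6 CPM in those groups, a fold of 1.63 (1.51 to 1.76). The guanylate-binding proteins Gbp2b (57.2 and 29.2 CPM), Gbp2 (52.9 and 32.9 CPM), Gbp3 (18.7 and 9.44 CPM) and Gbp7 (7.57 and 3.46 CPM) shared that direction. They are closely related neighbours on chromosome 3, so reads may be split among them. The list members Bst2 and Ifitm2 were at 109 and 410 CPM in Cdx2+ cells and at 104 and 411 CPM in T+ cells without Cdx2. Ifit1 and Ifit3, textbook interferon targets, had 3 UMIs each in Cdx2+ cells. Gbp2b, Gbp2 and Irf1 were taken by the rule on the largest ratios, and Gbp3 and Gbp7 were chosen after their values were seen.

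The promoters of these genes are shown because the interferon-response motif is a run of letters that can be read off directly. In RefSeq promoters of GRCm38.p6, which run from 250 bases before to 50 bases after each start, 13 motifs were searched on both strands after the expression values had been seen. Of the 71 higher genes 47 had a promoter entry. The interferon-response element, read here as GAAA, any 2 bases and GAAA, was present in 10 of those 47 (21.3%), in 3.32% of 6719 measured genes with an entry and in 3.44% of all 32851 promoters. The 10 include Gbp2, Gbp2b, Gbp3 and Gbp7, related neighbours whose reads and promoters may not be independent. TTCNNNGAA, the gamma-activated site, was present in 10 of the 47 (21.3%) and in 7.84% of the measured genes, and 3 genes (Gbp7, Rab19 and Igtp) had both motifs. The caudal-type motif TTTATNG was present in 5 of the 47 (10.6%) and in 7.89% of the measured genes. The octamer ATTTGCAT, the site of POU factors, was present in 3 of the 47 (6.38%) and in 1.49% of the measured genes. Its 3 genes were Cdx2, Elf3 and Nmi, and Cdx2 is among the 71 because the cells were chosen by it. Of the other 9 motifs, CTTTGNNC, a TCF and LEF type motif, was present in 14 of the 47 (29.8%) and in 17.9% of the measured genes. The caudal-type TTTATG, without the open base, was present in 6 of the 47 (12.8%) and in 7.02% of the measured genes. TAATTA was present in 3 of the 47 (6.38%) and in 2.92% of the measured genes. The rest were present in 0 to 4 of the 47. A match shows letters in a window and not a bound site. Each sequence below is 60 bases upstream of a gene's start, written 5′ to 3′ on the gene's strand, with the interferon element or the octamer in capitals. Evx1 is shown as a marker and was not among the 71 higher genes. Capitals in Gbp2, Gbp2b, Gbp7 and Cdx2 are the motif read on the opposite strand, and Isg15 holds 3 overlapping matches of which 1 is capitalised.
Isg15 (chr4:156200850-156200909, minus strand): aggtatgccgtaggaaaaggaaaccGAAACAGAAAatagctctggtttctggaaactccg
Igtp (chr11:58199496-58199555, plus strand): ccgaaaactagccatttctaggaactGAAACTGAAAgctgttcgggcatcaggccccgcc
Gbp2 (chr3:142620579-142620638, plus strand): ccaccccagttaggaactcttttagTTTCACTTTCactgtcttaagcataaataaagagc
Gbp2b (chr3:142594685-142594744, plus strand): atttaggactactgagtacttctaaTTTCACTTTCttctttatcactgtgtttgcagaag
Gbp7 (chr3:142530258-142530317, plus strand): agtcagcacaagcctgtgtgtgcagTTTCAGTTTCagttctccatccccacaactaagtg
Cdx2 (chr5:147307363-147307422, minus strand): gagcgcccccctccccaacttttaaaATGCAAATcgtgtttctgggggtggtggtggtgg
Evx1 (chr6:52313346-52313405, plus strand): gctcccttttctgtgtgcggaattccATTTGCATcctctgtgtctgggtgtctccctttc

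Among signalling and mesoderm genes, Msx1, Wnt5a and Tcf15 were higher. Msx1, a homeobox target of BMP signalling in posterior and lateral mesoderm, was at 57.3 CPM in Cdx2+ cells (53.4 to 61.4) and 29.0 CPM in T+ cells without Cdx2 (27.7 to 30.3), a fold of 1.98 (1.82 to 2.15). It was equally high in Mesp1+ cells (57.6 CPM) and Gsc+ cells (64.8 CPM). Id1, a direct BMP target, was at 681 and 499 CPM in Cdx2+ cells and T+ cells without Cdx2, a fold of 1.36 (1.33 to 1.39). Of 7 measured genes of the BMP list Msx1 was higher, none was lower, and the median log2 ratio was 0.26. Among Wnt ligands, Wnt5a, which guides convergence and extension in the caudal embryo, was at 6.58 and 3.21 CPM in those groups, and at 18.6 CPM in Mesp1+ cells. Wnt8a, a streak ligand, was at 19.2 and 14.4 CPM and Wnt3, which initiates the streak, at 38.4 and 33.6 CPM. Of 7 measured Wnt targets none passed 1.5-fold, with Sp5 at 85.7 and 69.1 CPM and Lef1 at 42.5 and 34.3 CPM. Fgf8, the ligand that drives cells out of the streak, was at 254 CPM in Cdx2+ cells, 188 CPM in T+ cells without Cdx2 and 327 CPM in Gsc+ cells. Of 8 measured FGF and ERK targets none passed the limit, and Dusp6 was at 48.7 and 46.7 CPM. Tcf15, a paraxial mesoderm factor that is also found in epiblast, was at 19.4 and 10.7 CPM, a fold of 1.80 (1.56 to 2.08), and at 20.3 CPM in Zfp42+ cells. The presomitic genes Tbx6 and Msgn1 were at 0.778 and 0.637 CPM in Cdx2+ cells and 1.20 and 0.563 CPM in T+ cells without Cdx2.

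Of 12 anterior streak genes 6 were measured, none was higher, and the median log2 ratio was -0.23. Gsc and Eomes, 2 of the 6, were lower, where 0.0923% of all measured genes were lower. Gsc, by which members were chosen, counts in both the 2 and the median. Eomes is also in the general primitive streak list, where it alone of 12 measured genes was lower. Lefty1, a Nodal inhibitor, was at 56.3 CPM in Cdx2+ cells and 47.8 CPM in T+ cells without Cdx2, above 1-fold like Hhex. Of 11 blood and endothelial genes 2 were measured, of which Etv2 was lower and Lmo2, a blood cofactor, was at 6.37 and 7.98 CPM. Eomes, a T-box factor of anterior streak and endoderm, was at 22.3 CPM in Cdx2+ cells (19.9 to 24.9) and 36.7 CPM in T+ cells without Cdx2 (35.2 to 38.2), 1.65-fold lower (1.46 to 1.86). It was at 123 CPM in Mesp1+ cells and 130 CPM in Gsc+ cells. Etv2, which specifies blood and endothelium, was at 26.2 and 49.1 CPM in Cdx2+ cells and T+ cells without Cdx2, 1.87-fold lower (1.68 to 2.09). Cyp26a1, which breaks down retinoic acid, was at 4.46 and 8.72 CPM, 1.96-fold lower (1.51 to 2.58). Gsc, at 3.89 and 12.0 CPM, was lower because only the members were limited in it. The rest of the 8 were Wipf3, Jakmip1, Nrcam and Rxrg, at 3.89 to 5.80 CPM in Cdx2+ cells and 6.50 to 10.5 CPM in T+ cells without Cdx2, and were named after their values were seen. Where T+ cells without Cdx2 were also held to fewer than 2 Gsc UMIs, 5 genes were lower, 4 of them among the 8, and Gsc, Eomes, Cyp26a1 and Rxrg no longer passed.

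By size, the remaining abundant genes were Igfbp3, a secreted binder of insulin-like growth factors, at 167 and 95.3 CPM in Cdx2+ cells and T+ cells without Cdx2 (fold 1.76, 1.67 to 1.84), Lgals3, a galectin, at 154 and 103 CPM, and Ldhb, a lactate dehydrogenase subunit, at 383 and 258 CPM. Named after its value was seen, Ccno, a cyclin-like gene of multiciliated cells, had the highest fold of the measured genes apart from Cdx2, 3.10 (2.62 to 3.66), at 16.7 and 5.39 CPM. Also named after its value was seen was Sprr2a3, a cornified envelope gene with close paralogues, at 28.8 and 11.9 CPM. At the other end, mitochondrially encoded, ribosomal protein and predicted or unnamed genes were left out of the ranking. The 10 abundant genes with the lowest ratios then lay between Trh, at 80.4 and 109 CPM, and Ddx39, at 259 and 308 CPM. None of the 10 reached 1.5-fold.

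Of all measured genes 0.819% were higher. In the neural list 1 of 4 measured genes was higher, Sox3, a neural and epiblast factor, at 5.24 CPM in Cdx2+ cells and 2.47 CPM in T+ cells without Cdx2 (fold 2.12, 1.59 to 2.81). Sox3 was among the 4 through its level in Cdx2+ cells only. In the retinoid list 1 of 5 was higher, the retinoic acid binder Crabp2, at 14.6 and 9.21 CPM (fold 1.58, 1.35 to 1.86), and Cyp26a1 was lower. Several further lists had no gene past 1.5-fold. None of 12 general pluripotency genes passed it, with Sox2 at 20.2 CPM in Cdx2+ cells and 19.8 CPM in T+ cells without Cdx2 and Nanog at 55.3 and 48.7 CPM. None of 11 formative genes passed, and Otx2, a factor of anterior epiblast, was at 10.2 and 15.5 CPM. None of 13 measured HIF targets passed, and their median log2 ratio was 0.08. Slc2a1, the glucose transporter, was at 82.4 and 58.1 CPM and Egln3 at 5.38 and 6.29 CPM, and none of 15 glycolysis genes passed. The 11 measured epithelial genes had a median log2 ratio of 0.28, and none passed, with Krt8 at 367 and 300 CPM and Cdh1 at 76.8 and 69.2 CPM. Among cell cycle genes, none of 20 for S phase and none of 20 for G2 and M phase passed. The dissociation stress list also had none of 8 past the limit, with Fos at 94.5 and 73.1 CPM, and mitochondrial UMIs had a median of 1.42% in Cdx2+ cells and 1.35% in T+ cells without Cdx2. Among caudal epiblast genes other than the markers, 1 of 9 measured was higher (Wnt5a), none was lower, and the median was 0.32. Wnt5a, at 6.58 and 3.21 CPM, was among the 9 through its level in Cdx2+ cells only.

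**Figure D3:**
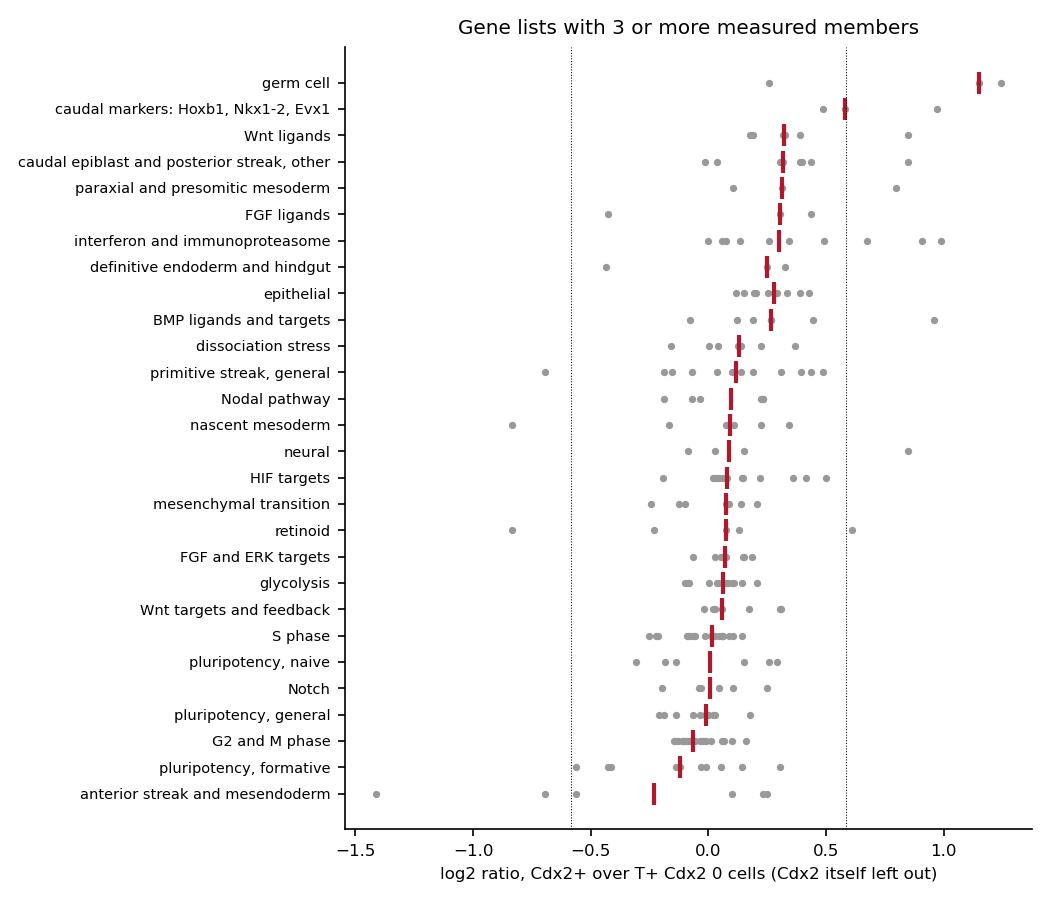
Grey points are the log2 ratios of measured genes in each gene list, Cdx2+ cells over T+ cells without Cdx2, red ticks are list medians and dotted lines mark 1.5-fold; Cdx2 is left out. The 20 S phase genes sit around 0. The germ cell list has 3 measured genes, and its median, the highest drawn, is the value of Tfap2c. Tfap2c was measured through its level in Cdx2+ cells only, so the place of that list is not read as a result.

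Levels were then read along the Cdx2 count itself, among knockout cells with at least 3 T UMIs and the members' limits on Mesp1 and Gsc. The classes of 0, 1, 2, 3, 4 to 5 and 6 or more Cdx2 UMIs held 2593, 684, 265, 132, 69 and 23 cells. Dnd1 was at 26.7, 42.2, 66.8, 58.8, 99.4 and 75 CPM across these classes. Psmb8 was at 64.4, 104, 123, 130, 226 and 150 CPM, and Msx1 at 27.4, 36.5, 49.98, 65.9, 51.3 and 72.4 CPM. All 3 were already higher at 1 Cdx2 UMI than at 0, with intervals that did not overlap, and none climbed without a break after that. Hoxb1 was at 17.2, 24.98, 25.5, 27.1, 42.1 and 18.8 CPM, so the classes of 1 and of 2 UMIs were alike. Nkx1-2 was at 5.65, 9.48, 12.7, 10.3, 6.48 and 29.5 CPM, and its highest value rests on 23 cells (18.5 to 44.6). Etv2 was at 46.6, 27.4, 29.5, 15.7, 29.7 and 36.2 CPM, lowest at 3 Cdx2 UMIs. Eomes was at 31.9, 28.3, 24.5, 21.7, 18.4 and 26.8 CPM. Cells of 1 UMI can hold a true level like that of cells of 2, and deeper cells pass a limit on UMIs more easily.

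**Figure D4:**
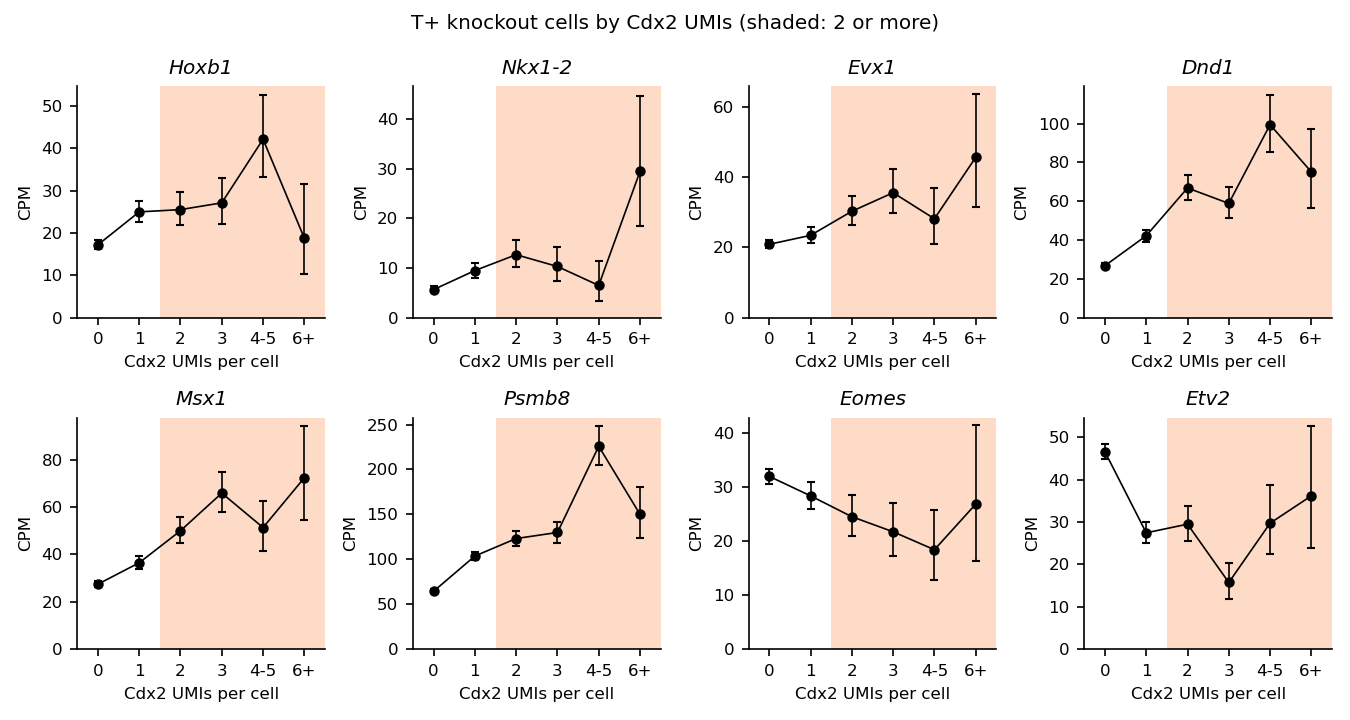
Levels in CPM of 8 genes in T+ knockout cells by the number of Cdx2 UMIs per cell, with 95% counting intervals; the shaded classes are members. Dnd1 is at 26.7 CPM with no Cdx2 UMI and 66.8 CPM with 2, Hoxb1 changes little between 1 and 3 UMIs, and the intervals widen to the right because the class of 6 or more holds 23 cells.

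The Cdx2+ cells were not uniform. T was at 0 in 13 of them, at 1 to 2 UMIs in 30, at 3 to 9 in 168 and at 10 or more in 321. Across these 4 classes Hoxb1 was at 6.04, 9.50, 19.9 and 31.5 CPM, Nkx1-2 at 3.02, 6.78, 7.46 and 14.2 CPM, and Dnd1 at 21.2, 16.3, 44.7 and 80.7 CPM. Sox2 ran the other way, at 39.3, 31.2, 25.8 and 16.0 CPM. Msx1 was at 96.7, 63.8, 64.9 and 52.0 CPM, so it did not go with T, and Cdx2 hardly varied (99.7, 99.1, 111 and 103 CPM). The caudal genes and Dnd1 were thus highest in the cells with most T, and the 43 cells with under 3 T UMIs had low levels of both, with wide intervals. Cdx2+ cells with a Hoxb1 UMI (186) and without (346) had Nkx1-2 at 12.9 and 10.9 CPM and Dnd1 at 62.5 and 67.5 CPM. Across the 532 cells Spearman's rho of depth-scaled counts was 0.46 between Dnd1 and Psmb8, 0.47 between Fgf8 and Psmb8 and 0.41 between Dnd1 and Fgf8. It was 0.08 between Hoxb1 and Nkx1-2 and -0.01 between Nkx1-2 and Evx1. These cells share 1 library and their depth scaling, and the counts are sparse, so the values are descriptive.

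Knockout cells split into a low and a high share of UMIs from chromosome 8, with peaks at 4.875% and 6.875% and a trough at 5.875% that left 3275 cells below it and 4108 above. Egln1 lies on that chromosome. The low-share cells made up 60.5% of Cdx2+ cells (56.2 to 64.7), 37.5% of T+ cells without Cdx2, 67.2% of Mesp1+ cells, 70.9% of Gsc+ cells and 23.9% of Zfp42+ cells. Cdx2+ cells were 9.83% of the low-share cells (8.83 to 10.9) and 5.11% of the high-share cells (4.46 to 5.83). The low and high shares thus differ between the groups compared, so each fold was also taken within them, a split chosen after the data were seen. Within low-share cells and within high-share cells the fold of Nkx1-2 was 2.10 and 2.19, of Hoxb1 1.70 and 1.504, of Dnd1 1.90 and 2.10, of Msx1 1.76 and 2.03, of Psmb8 1.57 and 1.65 and of Tfap2c 2.81 and 1.98. Each of these counting intervals lay above 1. Dnd1 and Psmb8 levels also moved with the split. Dnd1 was at 86.6 CPM in low-share Cdx2+ cells against 45.5 CPM in low-share T+ cells without Cdx2, and at 32.8 against 15.6 CPM in high-share cells. Psmb8 was at 179 against 114 CPM in low-share and 60.2 against 36.5 CPM in high-share cells. For Fgf8 the fold was 1.12 in both, at 330 against 294 CPM and 135 against 120 CPM, and 1.35 over all cells. Irf1 (1.32 and 1.63) and Gbp2 (1.30 and 1.77) were under 1.5-fold in low-share cells, as was Igfbp3 (1.46 and 1.83), and Tcf15 (1.60 and 1.32) was under it in high-share cells. Eomes had a fold of 0.472 in low-share and 0.708 in high-share cells, Etv2 of 0.558 and 0.428 and Cyp26a1 of 0.337 and 0.708, the last with an interval of 0.378 to 1.23. In low-share cells 79 of 8728 genes were higher by 1.5-fold, 49 of them among the 71, and in high-share cells 91 of 8658, 40 among the 71. After the T+ cells without Cdx2 were weighted to the low and high mix of the Cdx2+ cells, 57 of 8678 were higher, 51 among the 71. The same cells gave the 71, so part of this overlap follows from that. The 505 measured genes of chromosome 8 had a median log2 ratio of -0.09, against 0.03 for other chromosomes, and 4 of the 10 lowest genes lay on it. The part of the split in the gene differences beyond these values was not tested.

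**Figure D5:**
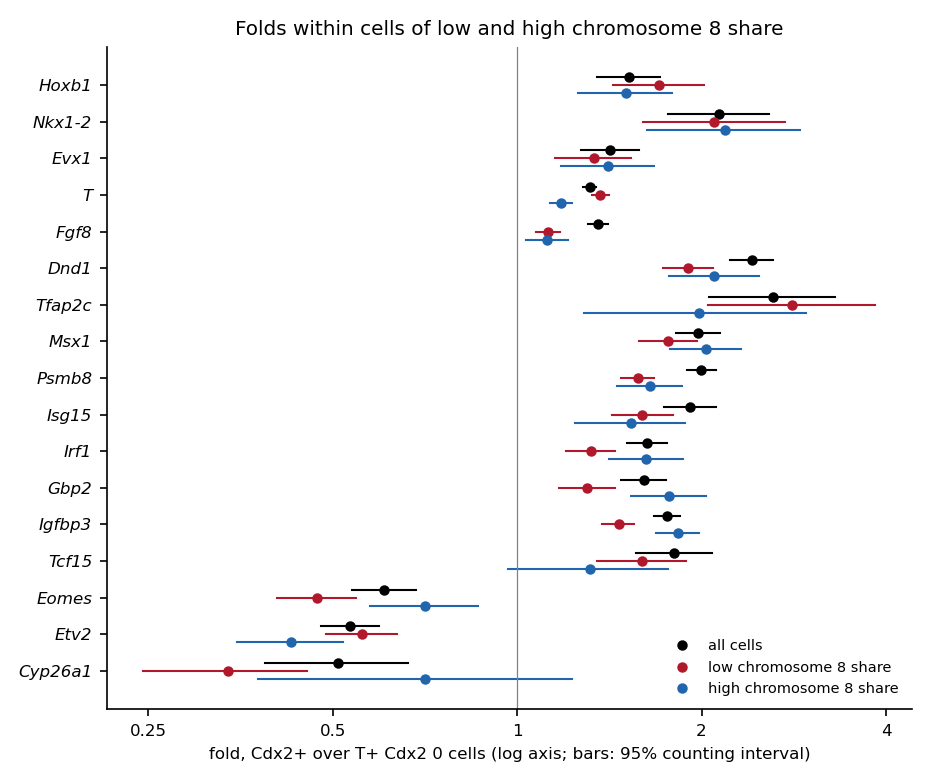
Fold of Cdx2+ cells over T+ cells without Cdx2 for selected genes, on a log axis, with 95% counting intervals, over all cells (black) and within cells of low (red) and high (blue) chromosome 8 share. Nkx1-2 stays near 2.1 in each, Fgf8 drops to 1.12 within both shares, and the high-share interval of Cyp26a1 crosses 1.

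Doublets, droplets with more than 1 cell, were looked for in both libraries. The automatic threshold of the doublet caller marked no cell of either library and so did not work. When the barcodes with the highest scores were taken out instead, 50 Cdx2+ cells (9.40%) and 176 T+ cells without Cdx2 (6.40%) left, 88 genes were higher and 11 lower, and 68 of the 71 higher genes and all 8 lower genes were among them.

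The 20 WT cells that met the same limits held 649414 UMIs, so that 3 UMIs would be 4.62 CPM. They had Cdx2 at 69.3 CPM, against 105 CPM in knockout Cdx2+ cells. They had 6 UMIs of T in all, against 7625 in the 532 knockout cells, and Hoxb1 and Tfap2c were at 0. Dnd1 was at 3.08 CPM and Psmb8 at 12.3 CPM, near the 7.32 and 15.2 CPM of all WT cells. Msx1 was at 33.9 CPM (21.2 to 51.3) against 9.66 CPM in all WT cells, and Sp5 at 52.4 CPM (36.3 to 73.2) against 8.80 CPM. Few WT cells thus carried 2 Cdx2 UMIs, and those that did lacked the T and Hoxb1 levels of the knockout cells.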

How the data were processed

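Single-cell RNA libraries of PHD2-KO and WT AB2.2 cells on day 4 were analysed, 1 library each. The authors deposited whole-number UMI counts per gene and barcode, and the file headers name Cell Ranger 4.0.0. The mm10 build, Cell Ranger and Seurat are named in the submitters' processing notes, and neither notes nor headers say whether strand was used. Members and gene lists were chosen with earlier results of these data known. Cells were kept at 1000 genes or more and at most 10% mitochondrial UMIs. UMIs were summed over the cells of a group and scaled to CPM. Genes reaching 5 CPM in either group were measured, and were called at 1.5-fold after adding 1 CPM, in either direction. Genes near 5 CPM, such as Wnt5a and Sox3, could thus be measured through the higher group only. Level intervals are exact Poisson, fold intervals exact conditional binomial and share intervals Clopper-Pearson, all 95% and for counting error only. Mitochondrially encoded, ribosomal protein and predicted or unnamed genes were left out when the highest and lowest ratios were ranked. Named genes were the 5 markers, Cdx1, Cdx4, measured Hox genes, the 10 highest and 10 lowest ratios of at least 50 CPM, up to 2 genes from each end of 34 lists with the most abundant, and genes that chose the cells. Not every gene so taken is named: most of the rest are given by their list's counts, and 1 measured gene is not reported here. Other genes named in the text, such as list members under 5 CPM, were chosen after their values were seen. The comparison was tested on simulated data. Coordinates come from GENCODE M21, matched for 27722 of 27998 genes. Software was Python 3.11.15, NumPy 2.4.6, SciPy 1.17.1, pandas 2.3.3 and scanpy 1.11.5 (Scrublet). In all, 28 alternatives were run, among them other limits on cells, Cdx2, T and Gsc, thinning, doublet removal, scaling, pseudocounts, minimum levels and chromosome shares.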

Additional observations from a re-analysis of the deposited data

How the results depend on the processing

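With 1 library per genotype, and with most Cdx2+ cells at 2 or 3 Cdx2 UMIs, cell counts and gene counts depended on the limits. Cdx2+ cells were 18.6% of knockout cells at 1 Cdx2 UMI or more, 3.21% at 3 or more, 1.29% at 4 or more, and 4.01% where cells were thinned to 14000 UMIs before they were chosen. For the share of members, WT cells gave 2.90%, 0.0434%, 0.0108% and 0.0711% under the same settings. Higher and lower genes numbered 30 and 4 at 1 Cdx2 UMI or more, 140 and 23 at 3 or more, 317 and 165 at 4 or more (95 cells), and 140 and 96 after thinning before the choice. They numbered 116 and 58 against all other knockout cells, 30 and 3 with 5 CPM added, 130 and 31 with no minimum level and 21 and 2 at a minimum of 20 CPM. They numbered 138 and 22 in cells at or above the median chromosome 11 share (Hoxb1 lies on chromosome 11) and 136 and 53 at or above the median chromosome 8 share. Lower genes alone moved to 22 with thinned levels, 5 with Gsc under 2 in both groups, 14 with T at 3 or more in Cdx2+ cells too, 20 with T at 1 or more in the cells compared, 13 with 0.1 CPM added, 32 below the median chromosome 11 share, 18 below the median chromosome 8 share, 22 below and 25 above its trough, and 13 with T at 10 or more in both groups. The cause of these moves was not tested, apart from fewer cells or genes where a setting leaves them out.

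Across 28 alternatives Nkx1-2 (log2 ratio 0.67 to 1.23), Dnd1 (0.84 to 1.68), Tfap2c (0.69 to 1.71), Msx1 (0.61 to 1.12) and Ccno (1.06 to 1.94) stayed past 1.5-fold. Psmb8 ran from 0.52 to 1.59, Wnt5a from 0.02 (all other knockout cells) to 1.39, Eomes from -1.21 to -0.36 and Etv2 from -1.24 to -0.55. Of 5152 values of 184 genes, 4221 lay within the counting interval of the value reported, 920 lay outside it with the same sign or with no call to turn, and 11 called values changed sign. Acta1 (-0.094), Bik (-0.053) and Acta2 (-0.15) did at 4 Cdx2 UMIs or more, and Dnajb4 (-0.0024) after thinning before the choice. Gsc (0.036) did with Gsc under 2 in both groups, and Cryab with T at 1 or more (-0.028) and against all other knockout cells (-0.016). Acta2 did below the median chromosome 11 share (-0.15), at or above the median chromosome 8 share (-0.44) and above the trough (-0.22), and Gbp7 (-0.046) at or above that median. Of 777 list medians 750 lay within the interval of the median reported. For the shortest lists that interval was the full range of their genes, so their medians could hardly leave it.

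No paired analysis was possible because each genotype has 1 library and the groups compared come from the same library. Counts at 1 to 3 UMIs per cell limit the choice of cells, and neither clone nor culture was replicated.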
